A study of Mus musculus with 9 samples.

Results

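Loss of the nucleus and of the other organelles from lens fibre cells was followed through 6 genes in newborn mouse lenses of 3 lines. They are *Dnase2b* and *Dnase2a*, which encode acid nucleases, *Hsf4*, which encodes a transcription factor, *Pla2g16*, which encodes a phospholipase, and *Bnip3l* and *Bnip3*, which encode mitochondrial receptors for autophagy. The 6 genes were found by symbol among the 47729 genes of the deposited tables. *Dnase2b* was chosen by its lower level in both transgenic lines than in *FVB/N*, so its values against *FVB/N* are given as a description and carry no test. The other 5 genes were added for their roles in the same process. All 6 passed the filter on low counts.

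RNA-Seq was performed on whole lenses collected on the day of birth (P0) from non-transgenic *FVB/N* mice, hemizygous *P0-3.9GFPCre* mice and hemizygous *Le-Cre* mice, all on the *FVB/N* strain background, whose retinas lose their photoreceptors. Both transgenes express CRE and GFP from fragments of the *Pax6* P0 promoter that carry the ectodermal enhancer, and both are active from the lens placode stage in the lens epithelium and in the surface ectoderm around it. *P0-3.9GFPCre* makes a fusion of GFP and CRE, whereas *Le-Cre* makes a nuclear CRE and, through an internal ribosome entry site, a separate GFP. Each line was represented by 3 pools, each of 6 lenses from 3 mice, and each transgene was studied in a single line derived from injected zygotes. The comparisons of the transgenic lines with *FVB/N* ask which lens transcripts differ when the transgene is present.

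Fibre cells arise at the lens equator from the epithelium, elongate, and in the centre of the lens remove their nuclei, mitochondria and endoplasmic reticulum, which leaves a transparent zone free of organelles. The DNA of the nucleus is degraded by DNASE2B, an acid endonuclease delivered by lysosomes, and lenses that lack it keep their DNA and become cataractous. HSF4 is the heat shock factor of the differentiating lens and is needed for *Dnase2b* expression, PLA2G16 acts on organelle membranes, and BNIP3L and BNIP3 mark mitochondria and other organelles for uptake by autophagosomes.

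Total expected counts per pool ranged from 20670968 to 28098059, and crystallin genes took 39.1% to 43.0% of them. Expected counts are RSEM's estimates of the reads from each gene. They were scaled to library size by the TMM method (CPM), and 15557 genes were tested in 1 edgeR quasi-likelihood fit with Benjamini-Hochberg adjustment. A gene was called when it differed 1.5-fold or more and its adjusted p did not exceed 0.05, the cutoff used below. Fibre markers summed to between 87283 and 108246 CPM in every line, and *Mip*, the main membrane channel of fibres, had at least 7748 CPM in each pool. The corneal markers *Krt12* and *Krt14* were at 0 in all 9 pools. Y-linked transcripts (*Uty*, *Kdm5d*, *Eif2s3y*, *Ddx3y*) summed to 121 to 193 CPM in *FVB/N*. They reached 56.2, 135 and 1.66 CPM in the *P0-3.9GFPCre* pools and 1.55, 74.2 and 0.602 CPM in the *Le-Cre* pools, so these transcripts were not balanced over the lines. For 1 gene the smallest two-sided p of an exact permutation test on 3 against 3 pools is 0.1, and in pooled tissue fewer cells of a type and less RNA per cell cannot be told apart.

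Levels can be compared between genes in TPM, the unit in which RSEM corrects for transcript length. In *FVB/N* lenses, *Pla2g16* was the most abundant of the 6 genes at 246 ± 7.48 TPM (SD, n = 3), above 97.7% of the 12182 genes with at least 1 TPM. *Bnip3l* followed at 178 ± 18.5 TPM and *Hsf4* at 169 ± 10.4 TPM, and the pools of these neighbours in the order overlapped. *Bnip3* stood at 97.7 ± 3.97 TPM and *Dnase2b* at 54.8 ± 4.30 TPM, above 94.7% and 90.4% of those genes. *Dnase2a* was at 0.980 ± 0.329 TPM. Apart from *Bnip3l* and *Hsf4*, the pools of neighbouring genes in this order did not overlap.

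**Figure D1:**
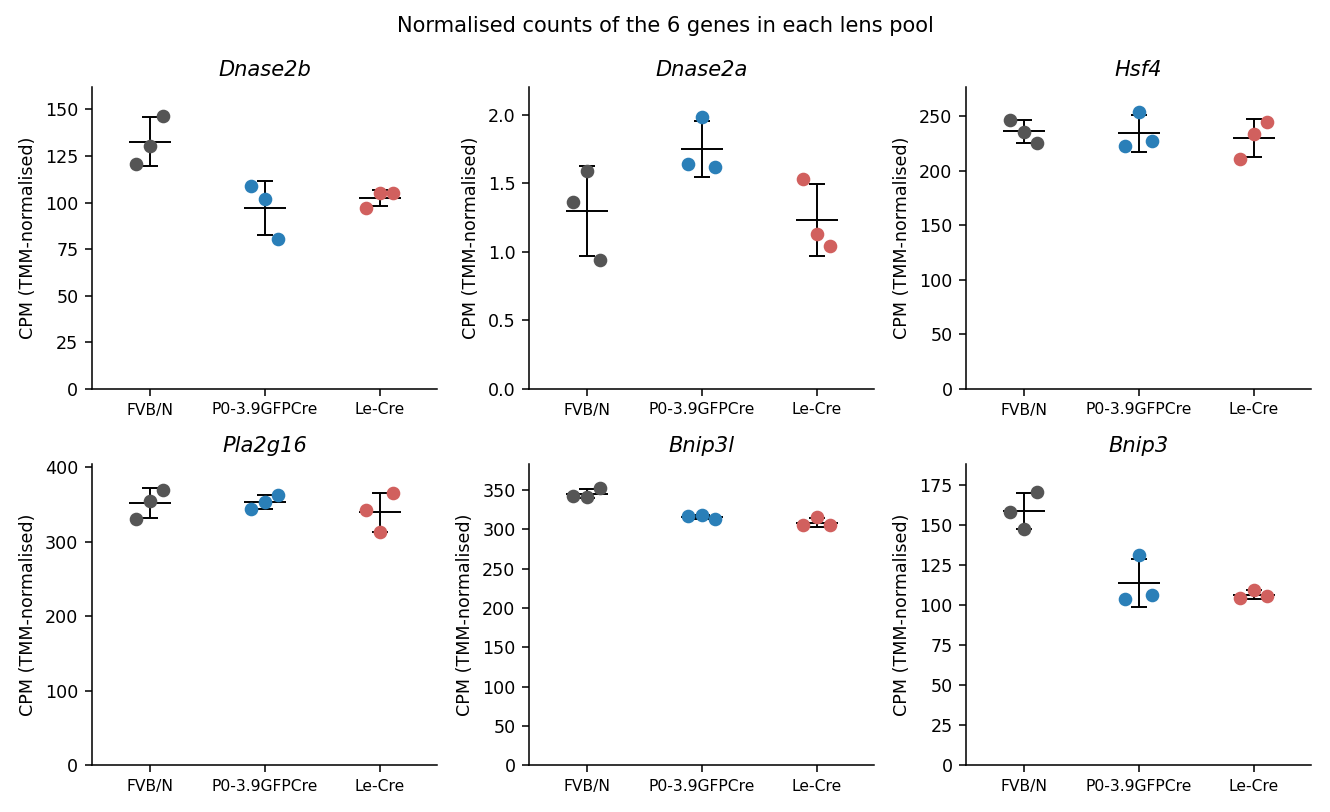
Normalised counts (CPM, y axis from 0) of the 6 genes in the 3 pools of each line. Points are pools, the long bar is the mean and the whiskers are 1 SD (n = 3). For *Dnase2b*, *Bnip3l* and *Bnip3* all transgenic pools lie below all *FVB/N* pools, with *FVB/N* minima of 121, 342 and 147 CPM.

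In the *Le-Cre* to *FVB/N* comparison, 0 of the 5 genes not chosen by their level passed the cutoff, against 0.0643% of all tested genes. In *P0-3.9GFPCre* against *FVB/N*, 0 of 5 passed, with 0% of all tested genes, and in *Le-Cre* against *P0-3.9GFPCre* 0 of 5 passed, again with 0% of all genes. Over all genes, 1236, 1060 and 1226 had an unadjusted p under 0.05 in these 3 comparisons, and DESeq2 called 49, 3 and 35 of 27762 genes. At an unadjusted p under 0.05, *Bnip3* and *Bnip3l* were lower in both lines, which is 2 of 5 genes in each. Among all tested genes 4.35% met that mark in *Le-Cre* and 3.41% in *P0-3.9GFPCre*. The same 2 genes had every transgenic pool below every *FVB/N* pool, as did 7.03% of all genes in *Le-Cre*, 5.94% in *P0-3.9GFPCre* and 1.85% in both lines. Both comparisons use the same *FVB/N* pools, so their results are not independent of each other.

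*Dnase2b* lies on chromosome 3 from 146580985 to 146615596 on the minus strand of GRCm38. It has 2 annotated transcripts, both coding, and none of its read-length sequences occurs in another gene. Its promoter is shown because *Dnase2b* is a target of HSF4. The 300 bases from 250 before to 50 after the start, at chr3:146615549-146615848 on the minus strand of GRCm38.p6 (RefSeq), hold 1 match to the heat shock element GAANNTTC, printed in capitals, which begins 230 bases before the start. That motif, which reads the same on both strands, occurs in 7.86% of 32851 promoters of this length, and the arrangement TTCNNGAA, which 8.52% hold, was not found in this window.
Dnase2b promoter: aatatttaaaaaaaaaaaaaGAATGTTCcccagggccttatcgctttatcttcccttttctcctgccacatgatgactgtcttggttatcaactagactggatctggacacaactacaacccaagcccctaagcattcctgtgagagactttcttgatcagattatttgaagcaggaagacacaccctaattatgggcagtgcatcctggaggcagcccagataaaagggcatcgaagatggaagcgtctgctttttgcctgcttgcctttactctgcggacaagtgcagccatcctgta
The motif is a match of letters and was not tested for binding.

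In *FVB/N* lenses the 3 pools had 121, 131 and 147 CPM of *Dnase2b*. The *P0-3.9GFPCre* pools had 109, 102 and 80.7 CPM, and the *Le-Cre* pools had 97.3, 105 and 105 CPM. All 6 transgenic pools were thus below the lowest *FVB/N* pool, and *P0-3.9GFPCre* replicate 3 was the lowest of all. The means were 133 ± 13.1 CPM (SD, n = 3) in *FVB/N*, 97.1 ± 14.6 in *P0-3.9GFPCre* and 102 ± 4.44 in *Le-Cre*. The fitted log2 fold changes relative to *FVB/N* were −0.45 in *P0-3.9GFPCre* and −0.37 in *Le-Cre*. In TPM, where the *FVB/N* pools ranged from 50.3 to 58.9, the transgenic pools ranged from 34.6 to 48.6. The ranges did not overlap, and the choice of *Dnase2b* by its level favours this in both units. The 2 transgenic lines differed by a log2 fold change of 0.08 (95% interval −0.16 to 0.31, adjusted p = 0.908 from edgeR). That interval leaves room for a difference of either sign. The choice did not use this contrast itself but did use the levels of both lines, which favours a small difference between them.

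*Dnase2b* was also fitted in the pools that held Y-linked transcripts at more than 50 CPM, namely all 3 *FVB/N* pools and 3 transgenic pools, which had 102 to 109 CPM of *Dnase2b*. In a fit of these 6 pools alone, added after seeing the data and with 1 *Le-Cre* pool assumed to vary like the others, the log2 fold changes were −0.33 in *P0-3.9GFPCre* and −0.34 in *Le-Cre*. When all 9 pools were fitted with a Y-linked covariate, the *Le-Cre* value was −0.22 and that of *P0-3.9GFPCre* −0.38. The part of sex in the level was not tested beyond these fits.

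*Dnase2a* encodes the general lysosomal DNase II, with which macrophages digest the DNA of engulfed cells. It lies on chromosome 8 from 84908560 to 84922915 on the plus strand, and 30.0% of its exon bases overlap *Mast1*, a kinase gene on the opposite strand. Its expected count was only 23.1 to 42.9 reads per pool. The *FVB/N* pools had 1.36, 1.59 and 0.942 CPM, the *P0-3.9GFPCre* pools 1.65, 1.99 and 1.62 CPM and the *Le-Cre* pools 1.53, 1.13 and 1.04 CPM. The *P0-3.9GFPCre* pools stood just above both other lines. Such a separation occurred in 6.02% of all genes for *P0-3.9GFPCre* above *FVB/N* and, in either direction, in 14.1% of all genes between the transgenic lines. The log2 fold change was 0.43 in *P0-3.9GFPCre* against *FVB/N* (95% interval −0.26 to 1.12, adjusted p = 0.835 from edgeR) and −0.07 in *Le-Cre* (−0.76 to 0.63, adjusted p = 0.981). In TPM the pools of all lines overlapped, from 0.650 to 1.72. Macrophage markers were low too, at 1.43 to 3.40 CPM in sum in *FVB/N*, 1.84 to 4.71 in *P0-3.9GFPCre* and 2.49 to 3.38 in *Le-Cre*, and their part in the *Dnase2a* level was not tested. Without a statement that counting used strand, reads of *Dnase2a* and *Mast1* in the overlap cannot be told apart. Summed, the 2 genes gave log2 ratios of −0.06 in *P0-3.9GFPCre* and −0.33 in *Le-Cre*.

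*Hsf4*, on chromosome 8 from 105269801 to 105275845 on the plus strand, showed little spread. Its pools had 247, 236 and 226 CPM in *FVB/N*, 223, 254 and 227 CPM in *P0-3.9GFPCre* and 211, 234 and 245 CPM in *Le-Cre*. The ranges of the 3 lines overlapped. The log2 fold change was −0.01 in *P0-3.9GFPCre* (95% interval −0.17 to 0.15, adjusted p = 0.990 from edgeR) and −0.04 in *Le-Cre* (−0.20 to 0.12, adjusted p = 0.945). *Hsf4* did not share the lower pools of *Dnase2b*, a contrast that the choice of *Dnase2b* by its level itself favours. Over the 9 pools the log2 CPM of the pair had a Pearson correlation of 0.12, a description over pools that share their lines. The part of HSF4 in the *Dnase2b* level was not tested.

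*Pla2g16*, named *Plaat3* in RefSeq, lies on chromosome 19 from 7557459 to 7588545 on the plus strand, with 4 coding transcripts of 802 to 3523 bases. Its product cleaves phospholipids and was linked in the lens to the breakdown of organelle membranes. The counts were alike in the 3 lines, with 331, 356 and 370 CPM in *FVB/N*, 344, 353 and 363 CPM in *P0-3.9GFPCre* and 342, 313 and 365 CPM in *Le-Cre*. These ranges overlapped. The fitted log2 fold change was 0.0047 in *P0-3.9GFPCre* (95% interval −0.15 to 0.16, adjusted p = 0.995 from edgeR) and −0.05 in *Le-Cre* (−0.20 to 0.10, adjusted p = 0.917). In TPM the *P0-3.9GFPCre* pools, at 273, 291 and 278, all stood above the *FVB/N* pools, at 241, 255 and 243, while the *Le-Cre* pools had 240, 250 and 259 TPM. For *P0-3.9GFPCre*, limma on log2(TPM + 1) gave 0.19 (adjusted p = 0.581). The share of all genes with such a separation in TPM was not counted.

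*Bnip3l*, also called NIX, is known for the clearance of mitochondria from maturing red blood cells and of organelles from lens fibres. It lies on chromosome 14 from 66985239 to 67008877 on the minus strand. The *FVB/N* pools had 343, 342 and 352 CPM, the *P0-3.9GFPCre* pools 318, 318 and 313 CPM and the *Le-Cre* pools 305, 315 and 306 CPM. The difference was small and the pools of each line lay close together, with a coefficient of variation of 0.916% to 1.84%. Its fold change on the log2 scale was −0.16 in *Le-Cre* (standard error 0.05, unadjusted p = 0.00752, adjusted p = 0.424 from edgeR) and −0.13 in *P0-3.9GFPCre* (standard error 0.05, unadjusted p = 0.0255, adjusted p = 0.662). *Bnip3l* was therefore not called in either line. A pseudogene, *Bnip3l-ps*, shares 20.6% of its read-length sequences, but *Bnip3l* held 99.98% of their summed counts. Erythroid markers summed to 45.1 to 88.9 CPM in *FVB/N*, 42.0 to 69.0 in *P0-3.9GFPCre* and 45.4 to 120 in *Le-Cre*, ranges that overlapped, and their part in the *Bnip3l* level was not tested.

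For *Bnip3l* the direction in *P0-3.9GFPCre* depended on the unit. In TPM the *P0-3.9GFPCre* pools had 189, 202 and 197, against 185, 192 and 157 in *FVB/N*, and limma on log2(TPM + 1) gave 0.14 (adjusted p = 0.792). RSEM divides by a length that is the mean over a gene's transcripts weighted by their abundance, and this length was 1949, 1758 and 1768 bases in *P0-3.9GFPCre*, 2003, 1967 and 2322 in *FVB/N* and 2318, 1958 and 2031 in *Le-Cre*. *Bnip3l* has 2 coding transcripts of 3238 and 3259 bases and 5 others of 354 to 789 bases without a coding sequence. The weighted length of *Pla2g16* was likewise shorter in *P0-3.9GFPCre*, at 1472, 1371 and 1462 bases, than in *FVB/N*, at 1501, 1552 and 1591. Every *P0-3.9GFPCre* pool was below every *FVB/N* pool for these 2 of the 6 genes, as it was for 5.37% of the 10451 tested genes whose length varied. In *Le-Cre* this held for 0 of the 6 genes and 3.88% of all genes. The transcripts behind the shorter lengths were not examined.

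**Figure D2:**
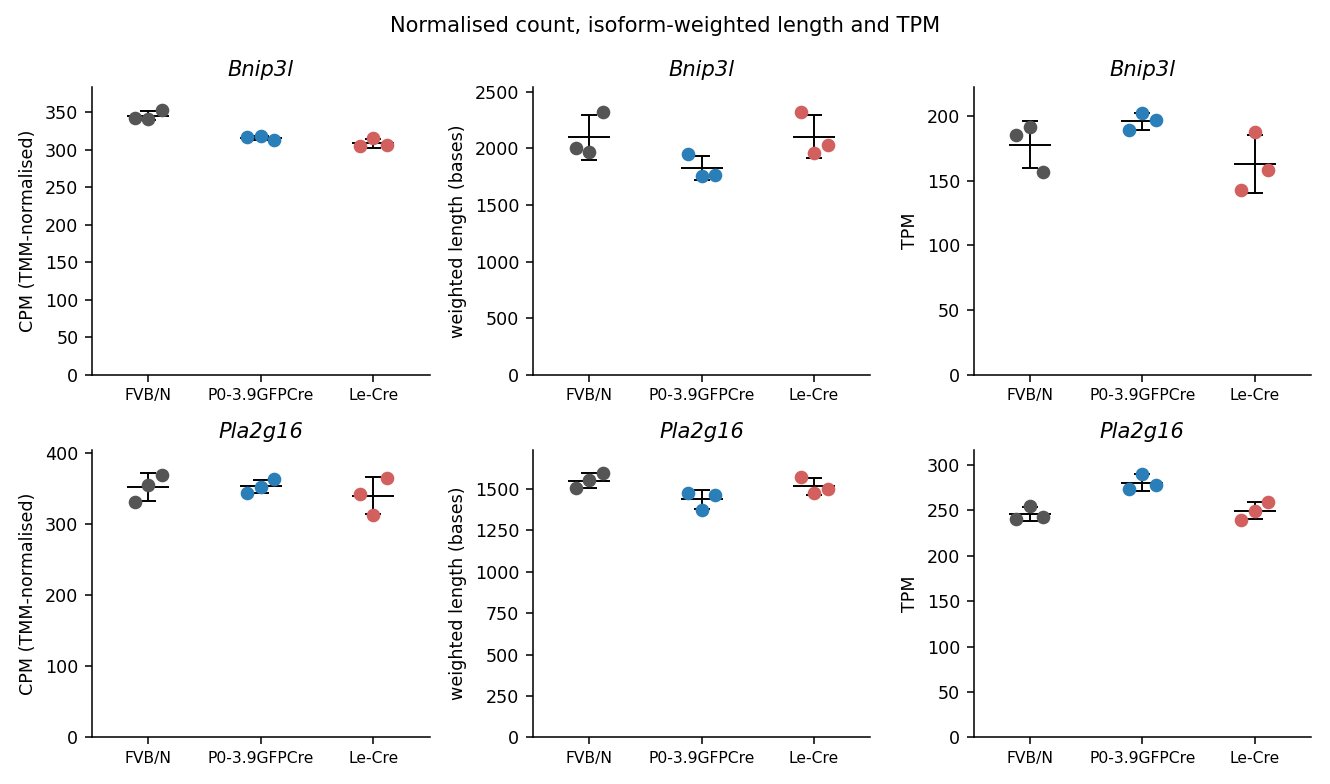
Normalised count (CPM), abundance-weighted transcript length (bases) and TPM of *Bnip3l* and *Pla2g16*, each axis from 0. Points are pools, bars are means and whiskers 1 SD (n = 3). The weighted length in *P0-3.9GFPCre* differed from *FVB/N* by −13.0% for *Bnip3l* and −7.32% for *Pla2g16*, and mean TPM was higher there while mean CPM was lower or level.

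*Bnip3*, the relative of *Bnip3l*, is induced by low oxygen through HIF1. It lies on chromosome 7 from 138890836 to 138909519 on the minus strand. Its promoter is shown because *Bnip3* had the largest fitted difference among the tested members, and because the core of the hypoxia response element, ACGTG, occurs in it. The window at chr7:138909457-138909756 on the minus strand of GRCm38.p6 (RefSeq) runs from 250 bases before to 50 after the start. It holds ACGTG on both strands, as the overlapping pair CACGTG in capitals, which begins 108 bases before the start. At least 1 match on either strand occurs in 19.6% of the 32851 promoters. ACGTG had no match in the windows of *Dnase2b*, *Dnase2a* and *Plaat3*. TGCTGA, a core of the element bound by MAF factors, was in none of the windows of the 4 genes listed and is in 19.5% of all promoters. *Hsf4* and *Bnip3l* were not among the promoter sequences used here.
Bnip3 promoter: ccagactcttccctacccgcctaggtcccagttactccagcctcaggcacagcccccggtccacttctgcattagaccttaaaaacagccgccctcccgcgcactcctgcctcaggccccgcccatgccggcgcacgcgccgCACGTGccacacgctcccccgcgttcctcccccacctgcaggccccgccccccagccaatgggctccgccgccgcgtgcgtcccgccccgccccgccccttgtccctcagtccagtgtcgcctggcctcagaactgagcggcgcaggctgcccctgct
As above, the capitals mark letters and not a measured site.

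The *FVB/N* pools had 158, 147 and 170 CPM of *Bnip3*. The *P0-3.9GFPCre* pools had 103, 131 and 106 CPM and the *Le-Cre* pools 104, 110 and 106 CPM. All 6 transgenic pools were below the lowest *FVB/N* pool, and *P0-3.9GFPCre* replicate 2 was the nearest to it. In *Le-Cre* the mean was 106 ± 2.81 CPM (SD, n = 3) against 159 ± 11.4 in *FVB/N*, a log2 fold change of −0.58 (95% interval −0.78 to −0.38), or 1.49-fold lower. Its unadjusted p of 5.58e-05 was number 14 of 15557 and its adjusted p was 0.0592 from edgeR, so it missed both parts of the cutoff by a narrow margin. In *P0-3.9GFPCre* the mean was 114 ± 15.2 CPM and the log2 fold change −0.48 (95% interval −0.68 to −0.28), or 1.40-fold lower, with an unadjusted p of 0.000251, number 10 of 15557, and an adjusted p of 0.390 from edgeR. DESeq2 gave adjusted p-values of 1.12e-06 in *Le-Cre* and 0.000198 in *P0-3.9GFPCre*, with the same folds, which remained under 1.5. In TPM the *FVB/N* pools (97.9, 93.6 and 102) and the transgenic pools (63.7 to 83.8) did not overlap either.

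The transgenic lines differed from each other by −0.09 for *Bnip3* (95% interval −0.29 to 0.11, adjusted p = 0.850 from edgeR) and by −0.03 for *Bnip3l* (−0.14 to 0.08, adjusted p = 0.914). Among the 3 transgenic pools above 50 CPM of Y-linked transcripts *Bnip3* had 103 to 131 CPM and *Bnip3l* 315 to 318 CPM. In the fit with the Y-linked covariate, *Bnip3* stood at −0.48 in *Le-Cre* and −0.44 in *P0-3.9GFPCre*, with adjusted p-values of 0.951 and 0.803 from edgeR. Other annotated genes share 46.6% of the read-length sequences of *Bnip3*. The largest share, 33.3%, is with *AC160336.1*, which is not among the genes counted here and so is not part of the sum below. *Gm16439* shares 13.3% and was given 127 reads in *FVB/N* replicate 3 and 0 in every other pool. *Gm45507*, an antisense gene, overlaps 22.3% of the exon bases and shares 15.75% of the read-length sequences, and *Gm6532* shares 10.6%. Both are likewise not among the genes counted here, so the sum does not cover them. With *Gm16439* and *Gm9419* added, the log2 ratios to *FVB/N* were −0.59 in *Le-Cre* and −0.50 in *P0-3.9GFPCre*.

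**Figure D3:**
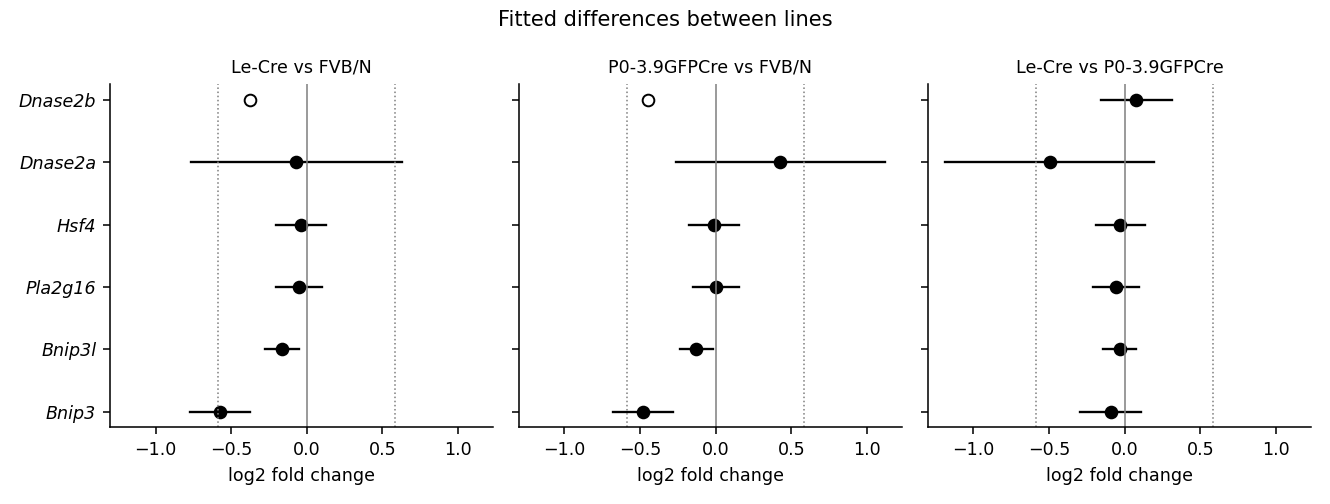
Log2 fold changes of the 6 genes in the 3 comparisons from edgeR, with 95% intervals as lines. Open circles mark *Dnase2b* against *FVB/N*, which was chosen by these values and has no interval, and dotted lines mark 1.5-fold. The intervals of *Bnip3* and *Bnip3l* lie below 0 against *FVB/N* in both lines, and all intervals between the transgenic lines include 0.

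Over the 9 pools, the log2 CPM of *Bnip3* and *Bnip3l* had a Pearson correlation of 0.95, *Dnase2b* and *Bnip3l* one of 0.84 and *Dnase2b* and *Bnip3* one of 0.80. These values describe pools that share their lines and libraries. The choice of *Dnase2b* by its lower level favours its correlation with *Bnip3l* and *Bnip3*, which were lower in the same pools. Among 7651 genes with a mean of at least 10 CPM, the genes most like *Bnip3* were *P4ha1*, a collagen prolyl hydroxylase subunit (r = 0.98), *Narf* (0.96) and *Ndrg1*, a stress-responsive gene (0.95). Those most like *Bnip3l* were *Narf* (0.95), *Cmtm4* (0.95) and *Bnip3* itself. *P4ha1* had 740 ± 30.6 CPM (SD, n = 3) in *FVB/N*, 624 ± 47.5 in *P0-3.9GFPCre* and 594 ± 26.1 in *Le-Cre*. The pools of *P4ha1*, *Narf*, *Ndrg1* and *Cmtm4* were lower in both lines without overlap, which the likeness itself favours.

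*Dnase2b* was most like *Ngef*, a guanine nucleotide exchange factor (r = 0.98), *Ago2*, the slicer of RNA interference (0.97), and *Sema5a*, a semaphorin (0.97). *P0-3.9GFPCre* replicate 3 was the lowest pool for all 4 of these genes, which the choice by likeness itself favours. For *Hsf4* the closest genes were *Rpl39-ps* (0.94), *Fgfr2* (0.93) and *Stx18* (0.92). *Pla2g16* was closest to *Edf1* (0.99), *Urod* (0.95) and *Fzr1* (0.93), and the low counts of *Dnase2a* to *0610009O20Rik* (0.92), *Sgsh* (0.91) and *Kctd2* (0.90).

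**Figure D4:**
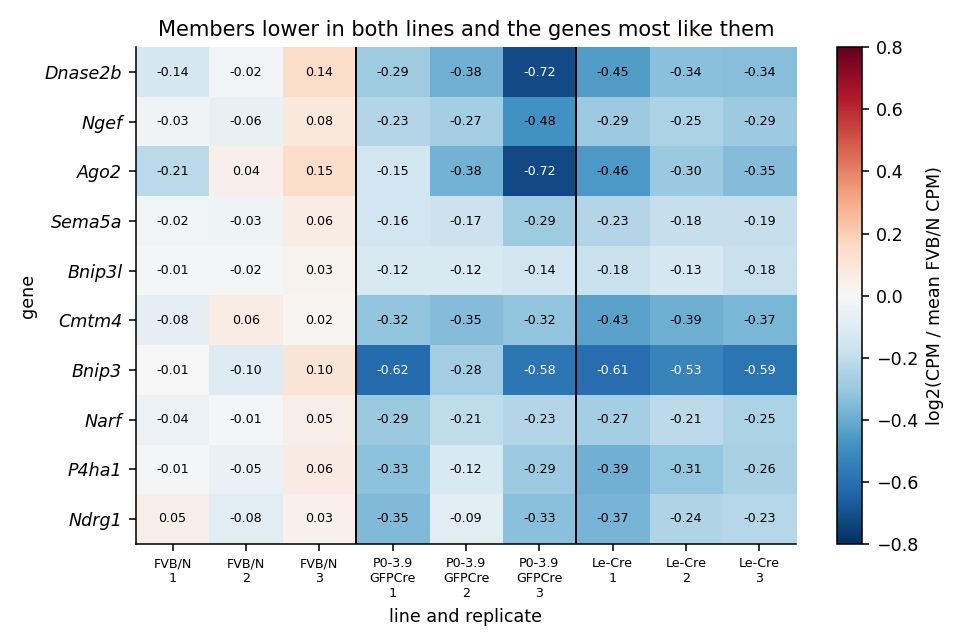
Log2 ratio of each pool's CPM to the *FVB/N* mean for *Dnase2b*, *Bnip3l* and *Bnip3* and the genes most like them, by line and replicate. Blue is below and red above the *FVB/N* mean. *Bnip3* runs from −0.62 to −0.28 in the transgenic pools and *Bnip3l* from −0.18 to −0.12, and *Dnase2b* reaches −0.72 in *P0-3.9GFPCre* replicate 3.

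Other genes of the same processes were counted by list. Of 11 further nucleases, 9 were tested. In both lines 0 were called and 0 reached an unadjusted p of 0.05, with median log2 fold changes of 0.0039 in *Le-Cre* and −0.0087 in *P0-3.9GFPCre*. Over all genes the medians were −0.0040 in *Le-Cre* and 2.39e-05 in *P0-3.9GFPCre*. *Trex1*, a nuclease that degrades cytosolic DNA, had 12.1 CPM in *FVB/N*, 13.2 in *P0-3.9GFPCre* and 15.7 in *Le-Cre* (log2 fold change 0.37, adjusted p = 0.714 from edgeR). *Dnase1l1* and *Fen1* were at −0.34 and 0.17 in *Le-Cre*, with pools that overlapped, and in *P0-3.9GFPCre* *Endod1* was at −0.12.

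All 12 genes of nuclear breakdown were tested and 0 passed the cutoff in either line, with medians of 0.06 in both, and 1 in each line had an unadjusted p under 0.05. *Cdk1*, that gene in both lines, encodes the mitotic kinase that acts on nuclear lamins. It had 22.2, 21.6 and 25.6 CPM in *FVB/N*, 30.8, 26.7 and 30.2 in *P0-3.9GFPCre* and 30.1, 29.1 and 31.2 in *Le-Cre*. Its pools were higher in both lines without overlap, with log2 fold changes of 0.38 in *Le-Cre* (adjusted p = 0.236 from edgeR) and 0.34 in *P0-3.9GFPCre* (adjusted p = 0.590). In *P0-3.9GFPCre*, 6.02% of all tested genes had every pool above every *FVB/N* pool. That share was not counted for *Le-Cre* or for both lines together, and both comparisons use the same *FVB/N* pools. Its partner *Ccnb1* was at 0.24 in *Le-Cre* and 0.16 in *P0-3.9GFPCre*. *Lbr*, which encodes a receptor of the nuclear lamina, was at 0.16 in *P0-3.9GFPCre*.

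Of 13 regulators of denucleation, all tested, 0 passed the cutoff, with medians of −0.05 in *Le-Cre* and −0.06 in *P0-3.9GFPCre*. At an unadjusted p under 0.05, 0 differed in *Le-Cre*, and in *P0-3.9GFPCre* 1 was higher and 1 lower. *Foxe3*, the forkhead factor of the lens epithelium, was at −0.27 in *Le-Cre* and −0.33 in *P0-3.9GFPCre*, with pools that overlapped. *Maf*, a factor that drives crystallin genes in fibres, was at −0.24 in *P0-3.9GFPCre* (adjusted p = 0.662 from edgeR) and −0.16 in *Le-Cre*, and the small MAF gene *Mafk* was at 0.17 and 0.18.

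Of 11 heat shock factors and lens targets of HSF4, 10 were tested. In *Le-Cre* 1 passed, *Hspb1*, which encodes a small heat shock protein and was known from the earlier results. It had 36.0, 36.9 and 38.6 CPM in *FVB/N*, 101, 62.2 and 109 in *P0-3.9GFPCre* and 120, 84.1 and 118 in *Le-Cre*. *Hspb1* rose by 1.53 on the log2 scale in *Le-Cre* (adjusted p = 0.0331 from edgeR) and stood at 1.29 in *P0-3.9GFPCre* (adjusted p = 0.239). The *Le-Cre* call was lost when any 1 of the 3 *Le-Cre* or 3 *FVB/N* pools was left out (adjusted p from 0.0522 to 0.174, log2 fold change from 1.44 to 1.68) and with the Y-linked covariate (adjusted p = 0.241). It was also lost with limma on log2(TPM + 1) and log2(TPM + 0.1) (adjusted p = 0.0855 and 0.106) and in the fit of the 6 pools above 50 CPM of Y-linked transcripts (adjusted p = 0.893). In *P0-3.9GFPCre*, *Hspb1* passed without replicate 2 of that line (adjusted p = 0.0101), and DESeq2 called it in both lines (adjusted p = 7.72e-07 and 0.000157). *Hmox1*, the stress-induced heme oxygenase, was at 0.78 in *Le-Cre* (adjusted p = 0.178) and 0.56 in *P0-3.9GFPCre* (adjusted p = 0.590). *Crygs*, a crystallin gene, was at 0.29 in *Le-Cre* and −0.14 in *P0-3.9GFPCre*. At an unadjusted p under 0.05, 3 genes of the list were higher in *Le-Cre* and 2 in *P0-3.9GFPCre*, and 0 were lower in either. *Hspb1* and *Hmox1*, both known from the earlier results when the list was chosen, were among them in each line. These counts are thus a description, and the share of all genes higher at that mark was not counted. The median of the list was 0.04 in both lines.

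The 13 phospholipase, lipoxygenase and lysosome genes were all tested and 0 passed, with medians of 0.00061 in *Le-Cre* and −0.04 in *P0-3.9GFPCre*. At an unadjusted p under 0.05, 1 was higher and 1 lower in *Le-Cre* and 2 were higher in *P0-3.9GFPCre*. *Alox12*, an arachidonate lipoxygenase, had 8.59, 9.81 and 7.86 CPM in *FVB/N*, 12.8, 8.67 and 13.1 in *P0-3.9GFPCre* and 13.6, 11.7 and 13.5 in *Le-Cre*. It differed by 0.56 on the log2 scale in *Le-Cre* (adjusted p = 0.336 from edgeR) and 0.40 in *P0-3.9GFPCre* (adjusted p = 0.662). *Alox15*, the enzyme linked to organelle loss in reticulocytes, was at 0.34 in *P0-3.9GFPCre* (adjusted p = 0.662). *Hrasls*, of the family of *Pla2g16*, was at 0.22 in *Le-Cre* and 0.24 in *P0-3.9GFPCre*, and the lysosomal protease gene *Ctsb* at −0.20 in *Le-Cre*.

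All 21 other genes of mitophagy and autophagy were tested and 0 passed, with medians of −0.03 in *Le-Cre* and −0.0053 in *P0-3.9GFPCre*. At an unadjusted p under 0.05, 2 were lower in *Le-Cre* and 0 differed in *P0-3.9GFPCre*. *Fundc1*, another mitochondrial receptor that binds LC3, had at least 17.6 CPM in the *FVB/N* pools, 16.4, 16.5 and 16.9 in *P0-3.9GFPCre* and 17.1, 17.0 and 14.4 in *Le-Cre*. Its pools were lower in both lines without overlap, at −0.16 in *P0-3.9GFPCre* (adjusted p = 0.789 from edgeR) and −0.20 in *Le-Cre* (adjusted p = 0.629). Among all tested genes 1.85% were lower in both lines without overlap. *Pink1*, the kinase that marks damaged mitochondria, was at −0.22 in *P0-3.9GFPCre*, and *Park2*, its partner ligase, at −0.45 in *Le-Cre*. The autophagy genes *Atg5* and *Map1lc3a* were at 0.21 and −0.27 in *Le-Cre*, and *Atg9a* at −0.16 in *P0-3.9GFPCre*. Across these 6 lists and both lines, *Hspb1* in *Le-Cre* was the only gene past the cutoff with edgeR.

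**Figure D5:**
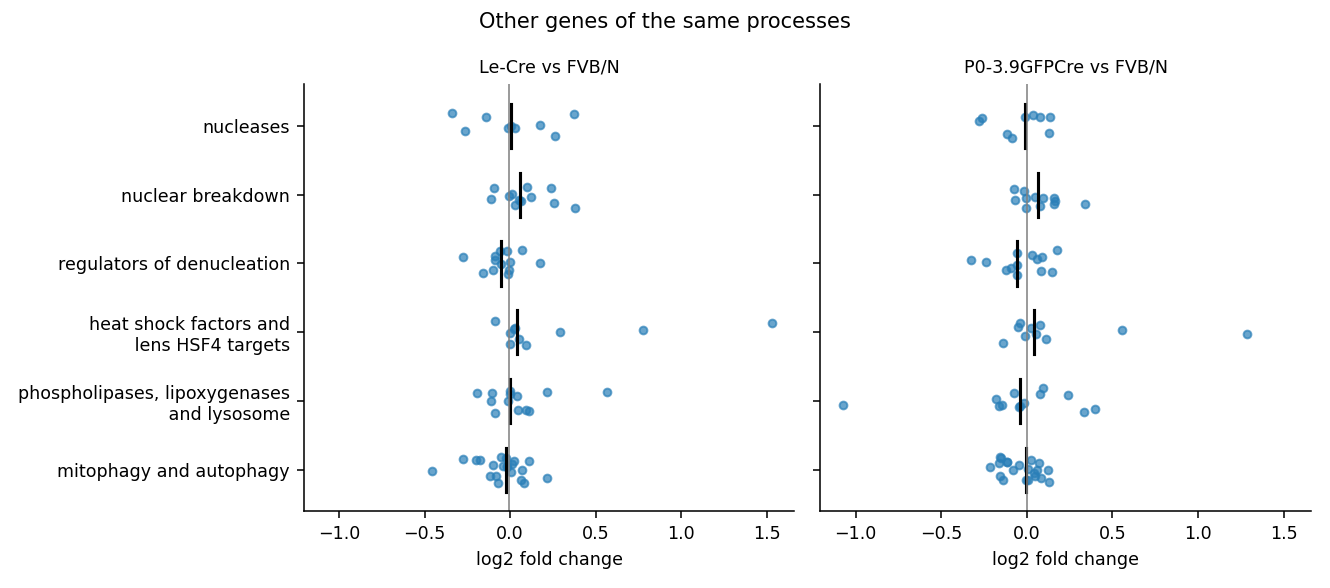
Log2 fold changes against *FVB/N* of the tested genes in 6 lists of related processes. Points are genes, black ticks the median of a list, and the grey line the median of all tested genes. In both panels the point farthest to the right is *Hspb1* (1.53 in *Le-Cre*, 1.29 in *P0-3.9GFPCre*), followed by *Hmox1* (0.78 and 0.56).

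Markers of the cell types in the tissue were read beside these genes. Of 12 fibre markers 0 passed the cutoff in either line, with medians of −0.05 in *Le-Cre* and −0.12 in *P0-3.9GFPCre*. Of 7 epithelial markers 0 passed, with medians of −0.15 and −0.10, and their summed level was 1188 to 1218 CPM in *FVB/N*, 1069 to 1181 in *P0-3.9GFPCre* and 1066 to 1094 in *Le-Cre*, lower in both lines without overlap. *Pdgfra*, a growth factor receptor of the epithelium, was at −0.40 in *Le-Cre* (adjusted p = 0.169 from edgeR) and −0.28 in *P0-3.9GFPCre* (adjusted p = 0.590). It had the lowest value of its list in *Le-Cre*, whereas *Pax6*, of the same list, was at −0.01 in *Le-Cre* and 0.08 in *P0-3.9GFPCre*. Every pool was lower for 4 of the 7 epithelial markers in *Le-Cre* and 3 in *P0-3.9GFPCre*. For the 12 fibre markers this held for 2 and 3, and among all tested genes for 7.03% and 5.94%. The part of the epithelial share in the levels of *Dnase2b*, *Bnip3* and *Bnip3l* was not tested.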

How the data were processed

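RNA-Seq libraries came from 9 pools of newborn lenses, grouped by the line named in the sample titles. The replicate number of the title was used, although the description of 1 *FVB/N* sample carries another number. The authors trimmed single-end reads with Trimmomatic 0.36, used GSNAP for alignment to GRCm38, and estimated gene abundance by RSEM 1.3.0, per the labels and the methods of the study. The deposited tables give expected counts, TPM, abundance-weighted lengths and intervals of TPM for each gene. The authors normalised TPM for length and library size and left the expected counts without normalization. The methods name DESeq2 1.10.1, and no fold changes of the authors were used here. The annotation release is not given in the sources used here.

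Expected counts were rounded and tested with edgeR 4.0.16 in R 4.3.3 (TMM, filterByExpr, glmQLFit and glmQLFTest on all 9 pools, Benjamini-Hochberg over 15557 genes), a test also checked on simulated data. DESeq2 1.42.0 and limma 3.58.1 on log2(TPM + 1) and log2(TPM + 0.1) were alternatives, as were other normalization, no filter, fewer pools and covariates. Of 47729 gene identifiers 47310 matched GENCODE M21, the source of coordinates. Shared sequence was measured over 51-base words. Promoters came from RefSeq and matched 4 of the 6 genes. The named genes are the 6 genes, list or marker genes past the cutoff, up to 3 genes per list with the largest absolute log2 fold change and a mean of at least 1 CPM, the 3 genes most correlated with each of the 6, and genes that share sequence with them. Some genes that the rule names are not reported here. *Mip*, *Krt12*, *Krt14*, *Pdgfra*, *Pax6*, the Y-linked genes and the genes induced by hypoxia were named after their values were seen. The 6 genes and all lists were chosen with earlier results of these data known. The labels give no separate cultures or litters, so p-values measure the spread between pools.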

Additional observations from a re-analysis of the deposited data

How the results depend on the processing

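In none of the 18 alternative fits did any tested one of the 6 genes pass the cutoff of fold and adjusted p together, in any comparison. With adjusted p alone, the edgeR test as reported gave 0 of them, whereas DESeq2, a choice added after seeing the data, called 1 gene, *Bnip3*, in *Le-Cre* and 1, again *Bnip3*, in *P0-3.9GFPCre*. The log2 fold change of *Bnip3* stayed between −0.62 and −0.48 in *Le-Cre* and between −0.59 and −0.41 in *P0-3.9GFPCre*. Its adjusted p in *Le-Cre* ran from 1.12e-06 (DESeq2) to 0.951 (Y-linked covariate). With edgeR it was 2.23e-05 without the filter, 0.0463 with the compared pools alone and 0.0214 without *P0-3.9GFPCre* replicate 2. In *P0-3.9GFPCre* it ran from 0.000198 (DESeq2) to 0.989 (pools above 50 CPM of Y-linked transcripts), against 0.390 as reported, and was 0.00049 with edgeR without the filter.

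The replicate numbers were also entered as a block, with 0 of the 6 genes past the cutoff in each comparison and *Bnip3* at −0.58 in *Le-Cre* (adjusted p = 0.149). Deviations of same-numbered pools had a mean correlation of 0.03 (−0.21 to 0.18), and those of differently numbered pools one of −0.02 (−0.25 to 0.21). The fit as reported did not pair pools by number. A preparation shared by same-numbered pools was not tested beyond this.

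Over all genes, calls in *Le-Cre* against *FVB/N* numbered 10 as reported, 49 with DESeq2, 131 without the filter, 2 with the block, 0 with the Y-linked covariate and 0 to 10 with 1 pool left out. In *P0-3.9GFPCre* against *FVB/N* they numbered 0, 3, 93, 0, 0 and 0 to 14. Between the transgenic lines they numbered 0, 35, 123, 0, 0 and 0 to 18, and 31 with the compared pools alone. *Dnase2b*, chosen by its values against *FVB/N*, had values of −0.43 to −0.29 (*Le-Cre*) and −0.54 to −0.33 (*P0-3.9GFPCre*) when 1 pool was dropped. Estimates near 0 changed sign. With the Y-linked covariate, *Dnase2a* (0.0024) and *Hsf4* (0.0045) in *Le-Cre* and *Hsf4* (0.0119) and *Pla2g16* (−0.0481) in *P0-3.9GFPCre* did so. With limma on log2(TPM + 1) and log2(TPM + 0.1), *Dnase2a* (0.0753, 0.13) and *Pla2g16* (0.0198, 0.0199) in *Le-Cre* and *Hsf4* (0.0588, 0.0591) and *Bnip3l* (0.14, 0.14) in *P0-3.9GFPCre* did. In the fit of pools above 50 CPM of Y-linked transcripts, added after seeing the data, *Hsf4* (0.0137) and *Pla2g16* (−0.0146) in *P0-3.9GFPCre* and *Dnase2b* between the transgenic lines (−0.0035) did. Leaving out 1 pool gave ranges across 0 for *Dnase2a* (−0.25 to 0.10), *Hsf4* (−0.0867 to 0.0201) and *Pla2g16* (−0.11 to 0.0092) in *Le-Cre*, *Hsf4* (−0.0673 to 0.0277) and *Pla2g16* (−0.0375 to 0.0416) in *P0-3.9GFPCre*, and *Dnase2b* (−0.0377 to 0.17), *Hsf4* (−0.0766 to 0.0309), *Pla2g16* (−0.11 to 0.0023) and *Bnip3* (−0.16 to 0.0206) between the transgenic lines. Depth limits *Dnase2a*, whose interval in *Le-Cre* ran from −0.76 to 0.63.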

Other observations

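Because *P4ha1* and *Ndrg1*, the genes most like *Bnip3* with *Narf*, are known to respond to low oxygen, 29 genes that hypoxia induces or that encode glycolytic enzymes were read as well. The list holds *P4ha1* and *Ndrg1* and was written after the values of *Bnip3* were seen, so its counts are a description. Of the 28 genes tested, 0 passed the cutoff with edgeR in either line. In *Le-Cre* against *FVB/N*, 13 had an unadjusted p under 0.05 and were lower, a mark that 4.35% of all tested genes met, 1 was higher, and the median log2 fold change was −0.22, against −0.0040 over all genes. In *P0-3.9GFPCre* 6 were lower, as were 3.41% of all tested genes, and 0 higher at that mark, and the median was −0.09. *Pdk1*, which encodes the kinase that closes the entry of pyruvate into mitochondria, had 115, 118 and 97.9 CPM in *FVB/N*, 78.4, 95.7 and 77.9 in *P0-3.9GFPCre* and 85.2, 79.0 and 77.1 in *Le-Cre*. All transgenic pools of *Pdk1* lay below the *FVB/N* pools, with log2 fold changes of −0.46 in *Le-Cre* (adjusted p = 0.198 from edgeR) and −0.40 in *P0-3.9GFPCre* (adjusted p = 0.590). *Kdm3a*, a histone demethylase, was at −0.23 in *Le-Cre* (adjusted p = 0.298) and −0.31 in *P0-3.9GFPCre* (adjusted p = 0.390), likewise without overlap of the pools. Such a separation in both lines was seen in 1.85% of all tested genes. *Ldha*, the lactate dehydrogenase gene, was at −0.27 in *Le-Cre* and −0.03 in *P0-3.9GFPCre*. The glucose transporter gene *Slc2a1* was at −0.08 in *Le-Cre* and 0.19 in *P0-3.9GFPCre*, and *Egr1*, an early response gene, was at 0.92 in *Le-Cre*. What these genes share with *Bnip3* beyond their values was not tested.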
